A study of Saccharomyces cerevisiae with 18 samples.

Results

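Yeast cultures exposed to 5 mg/L nonylphenol for 120 min were compared with cultures given the solvent alone for the same time. The comparison took every array whose title gave that dose and time, 3 in number, and the 3 control arrays of 120 min, so that 6 of the 18 arrays of the series were set against each other. It was read across 5498 probe sets, short groups of array oligonucleotides that each report 1 transcript, standing for 5449 Saccharomyces cerevisiae genes. Nonylphenol is an alkylphenol left when some industrial surfactants break down, and the series asked how transcription across the genome answers to it. The exposed and the control cultures were both BY4742, a haploid laboratory strain of mating type alpha with auxotrophic deletions, grown with shaking in YPD, a rich glucose medium, at 30 °C to the middle of exponential growth. Nonylphenol was added in ethanol, and the controls received an equal volume of ethanol, so that every culture carried the solvent. The other arrays, 3 per group, held 1 mg/L at 120 min and control, 1 mg/L and 5 mg/L at 180 min; they entered the estimate of the spread, and the dose and time tests below. The labels call the 3 arrays of a group biological replicates without naming separate cultures, and the p-values therefore speak only of differences from array to array.

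In rich glucose medium yeast ferments and devotes much of its transcription to ribosomes, and genes for other carbon sources, for storage carbohydrates, for stress protection and for sporulation are kept low. When growth slows or the cell is stressed, the transcription factors Msn2 and Msn4 raise a shared set of protective genes while ribosome production is turned down. Hydrophobic compounds are met by the factors Pdr1 and Pdr3, which control pumps and lipid-remodelling enzymes of the plasma membrane, and shortage of iron is met by Aft1, which controls siderophore uptake and iron sparing.

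The identity of the strain was read from genes that mark it. SAG1, the alpha agglutinin, had log2 levels of 11.33, 11.55 and 11.51 at 5 mg/L and 11.61, 11.50 and 11.62 in controls, and the groups overlapped. STE3, the alpha cell's receptor for a-factor, had 9.50, 9.53 and 9.41 at 5 mg/L, against 9.93, 10.001 and 10.12 in controls, and fell by 0.54 (SE 0.06, limma adjusted p = 8.2e-07). URA3 and LYS2, both deleted in BY4742, had means of 1.07 and 1.43 at 5 mg/L and 0.95 and 1.54 in controls, all under the background level of 1.86, which is the 95 percentile of the probe sets for another yeast species on the same array. LEU2, also deleted, had a mean of 2.94 at 5 mg/L and 3.03 in controls, above background in both groups. HIS3, which is only partly deleted in this strain, had 8.84 at 5 mg/L and 9.34 in controls, and where its probes lie was not checked.

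Of the 5498 probe sets, 3194 passed the test (58.1%; limma, Benjamini-Hochberg adjusted p under 0.05), 1398 of them higher at 5 mg/L (25.4%) and 1796 lower (32.7%). At this breadth a call alone says little about a gene, and size separated the directions. The called rises had a median size of 0.43 on the log2 scale with quartiles at 0.28 and 0.73, and the called falls a median of 0.33 with quartiles at 0.24 and 0.44. The fitted difference was at least 2-fold for 193 of the rises (3.51% of probe sets) and for 10 of the falls (0.182%). Of these rises 18 had a control mean under background, where the fitted size is not a measured one. A fitted difference of at least 2 on the log2 scale was reached by 25 rises and 1 fall, that of OPT2. The control means of SAE3, SPO19, YLR412C-A and YGR273C among them were under background, so that their folds are given below as lower bounds. The arrays of the groups did not overlap for 3621 probe sets (65.9%). Over all 5498 probe sets the median difference was -0.04.

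**Figure D1:**
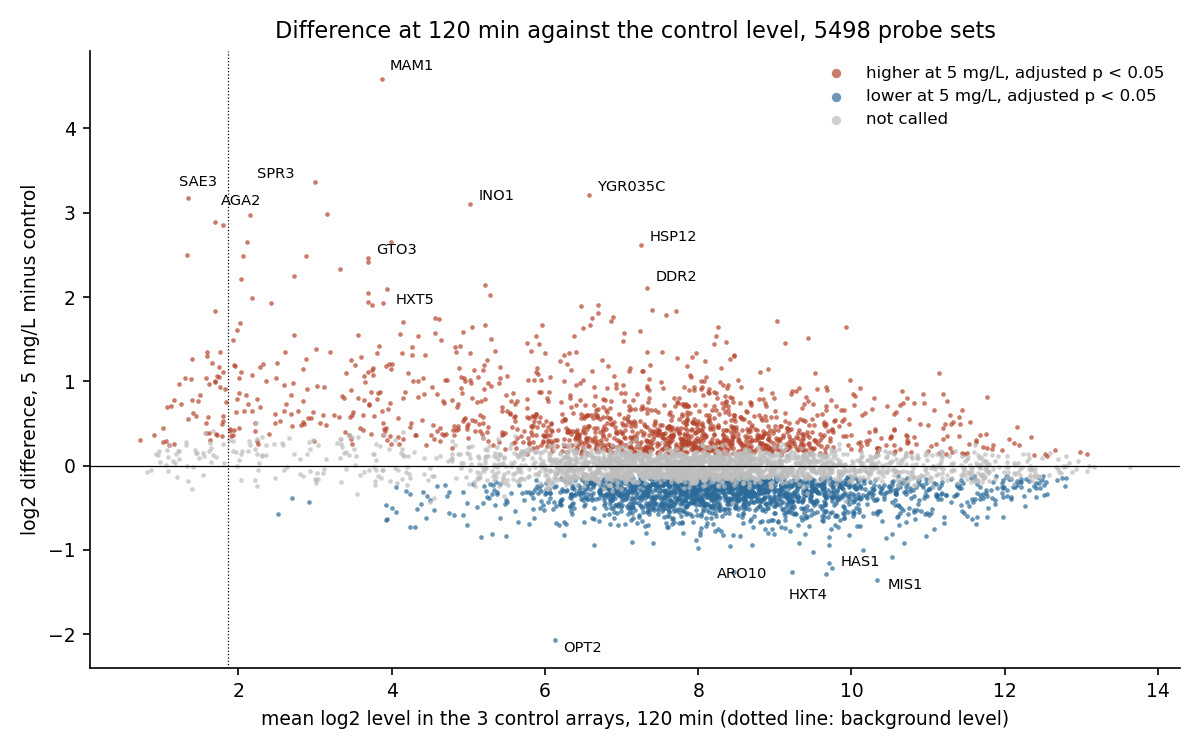
Log2 difference between 5 mg/L and control at 120 min (vertical axis) against the mean log2 level in the 3 control arrays (horizontal axis) for 5498 probe sets; red points were called higher and blue points lower at an adjusted p under 0.05, and the dotted line is the background level of 1.86. The large rises, MAM1 at 4.59 highest, lie mostly at low control levels, and the falls, OPT2 at -2.07 lowest, mostly at control levels above 6.

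The direction of change followed the level in the controls. Among 460 probe sets with a control level up to 5, 259 were higher (56.3%) and 30 lower (6.52%), with a median difference of 0.37. Among 5038 with a control level over 5, 1139 were higher (22.6%) and 1766 lower (35.1%), with a median of -0.07. The 2-fold rises were shared almost evenly between the low and the high levels, 98 and 95 in number, while the 2-fold falls numbered 0 and 10. Within these ranges the share of rises went down in steps, being 60.0% of 110 probe sets at control levels of 1.86 to 3, 38.4% of 297 at 5 to 6, 23.0% of 1287 at 7 to 8 and 14.5% of 325 over 11. The share of falls was 2.73%, 16.5%, 33.6% and 36.3% in the same 4 ranges, but it was highest between them, at 45.6% for control levels of 9 to 10 and 42.7% for 10 to 11. Probe sets for the other yeast species, which have no matching transcript in this strain, had a median difference of -0.03, and 0 of 1746 of them differed by 2-fold. The control arrays enter both the level and the difference, and the part this plays in the relation was not tested.

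**Figure D2:**
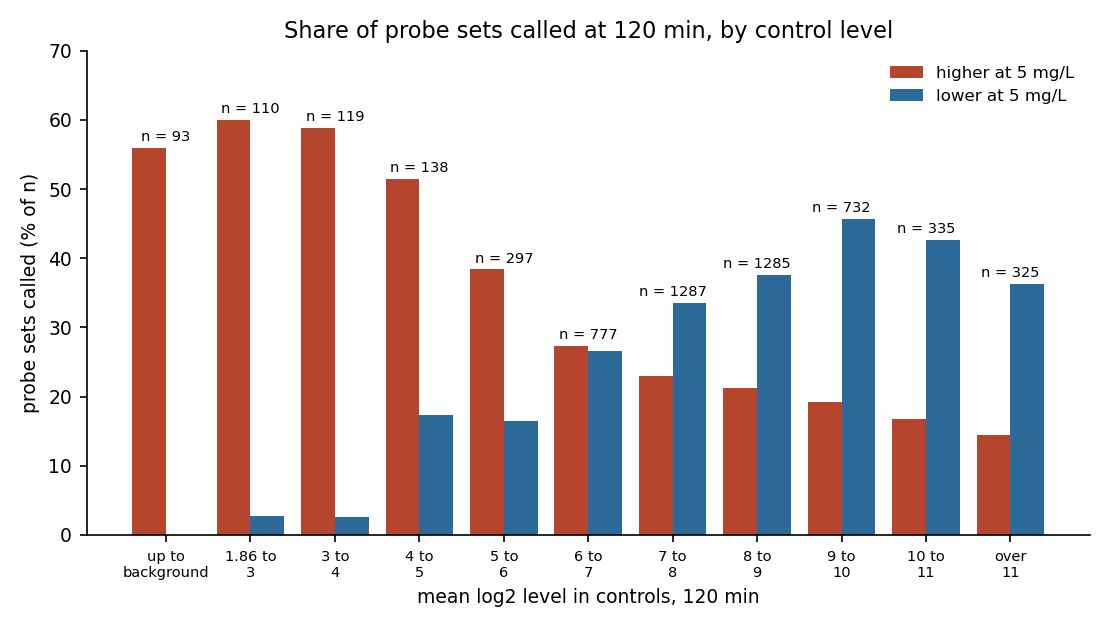
Share of probe sets called higher (red) or lower (blue) at 5 mg/L, in percent of the number printed above each pair of bars, by the mean log2 level in the controls at 120 min. Rises exceed 50% of the probe sets up to a control level of 5, and falls exceed rises from a level of 7 upwards.

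The arrays were close to each other within groups. The share of S. cerevisiae probe sets above background was 98.3 to 99.3% per array. Arrays correlated across probe sets at r = 0.995 to 0.997 within the 5 mg/L group, 0.999 within the controls and 0.975 to 0.977 between the groups. The median SD of a probe set was 0.092 at 5 mg/L and 0.052 in controls. RNA added in known amounts before labelling, the poly-A controls, read 5.32, 4.73 and 4.86 at 5 mg/L, against 4.42, 4.07 and 4.08 in controls, a difference of 0.78 (SE 0.21). Labelled control transcripts added at hybridization, the hybridization controls, differed by 0.26 (SE 0.05), and probe sets for the ribosomal RNAs by 0.39 (SE 0.09) for 18S and 0.98 (SE 0.10) for 25S. Scaling the arrays on the poly-A controls moved every difference by -0.78, with 95 rises and 4278 falls called, and scaling on the hybridization controls moved every difference by -0.26, with 521 rises and 2963 falls. The share of rises among the calls was 2.17% and 15.0% on these scalings and 43.8% as deposited. The changes below are therefore relative to the average transcript, and each difference between 0 and 0.78 is below 0 on the poly-A scaling. The 25 largest rises and the 25 largest falls kept their calls on both scalings. Both scalings move differences down, and by less than the smallest of these rises, 2.02, so that their directions could not have reversed. In bulk cultures fewer cells of a kind and less RNA per cell cannot be told apart. The counts given below for gene lists stand against 25.4% higher and 32.7% lower among all probe sets.

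Genes of meiosis and spore formation stood first among the rises, in a strain that cannot sporulate because it is haploid. MAM1, a subunit of the monopolin complex that makes sister kinetochores face the same pole in the first meiotic division, had log2 levels of 8.55, 8.59 and 8.22 at 5 mg/L, against 4.19, 3.56 and 3.85 in controls. It rose by 4.59 (SE 0.18, 24.1-fold, limma adjusted p = 1.1e-11), the largest change among the 5498 probe sets. SPR3, a septin of sporulating cells, had 6.40, 6.33 and 6.36 at 5 mg/L, against 3.13, 2.999 and 2.87 in controls, a rise of 3.36 (SE 0.14, 10.3-fold, adjusted p = 1.8e-11). SAE3, which loads the meiotic recombinase Dmc1, had 4.51, 4.54 and 4.48 at 5 mg/L, against 1.66, 1.11 and 1.24 in controls. The control level of SAE3 was under background, so that its rise was at least 6.26-fold (adjusted p = 1.8e-11). SPO19, a protein of the prospore membrane, had 4.63, 4.61 and 4.75 at 5 mg/L, against 1.91, 1.60 and 1.90 in controls, at least 6.95-fold higher (adjusted p = 6.7e-11). SPS100, needed for spore wall maturation, had 6.64, 6.68 and 6.63 at 5 mg/L, against 4.02, 4.03 and 3.94 in controls, a rise of 2.66 (SE 0.12). SPO11, the enzyme that makes the meiotic double-strand breaks, had 5.71, 5.78 and 5.73 at 5 mg/L, against 3.71, 3.74 and 3.62 in controls, a rise of 2.05 (SE 0.08). In all 6 genes every exposed array lay above every control array.

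The rest of these programmes did not move as a block. Of 49 probe sets on a list of middle and late sporulation genes, 27 were higher and 6 lower, against 25.4% and 32.7% of all probe sets, and the median was 0.38, which is below 0 on the poly-A scaling, where 7 were higher and 20 lower. NDT80, the master activator of middle sporulation genes, had 4.60, 4.45 and 4.48 at 5 mg/L, against 3.33, 3.51 and 3.39 in controls, a rise of 1.10 (SE 0.11). LDS2, a spore lipid droplet protein, rose by 1.55. Lower members were SPS4 with -0.68, GAS2 with -0.67, SPO75 with -0.64, SSP2 with -0.54, SPS18 with -0.40 and SPO16 with -0.26. Of 33 probe sets for early meiosis and recombination, 15 were higher and 3 lower, with a median of 0.32 that is also below 0 on the poly-A scaling. REC114, a partner of Spo11, rose by 1.93, MEK1, a meiotic checkpoint kinase, by 1.06, and DMC1 by 0.99. The crossover genes MSH5, MSH4 and NDJ1 fell, with -0.25, -0.31 and -0.49. IME1, the regulator that starts meiosis, had 6.23, 6.75 and 6.63 at 5 mg/L and 6.46, 6.43 and 6.61 in controls, and the groups overlapped (difference 0.03, adjusted p = 0.84). IME2, the kinase that acts with it, rose by 0.32 (SE 0.08). Most of both lists sat at low control levels, where most probe sets of any kind were higher: 34 of the 49 sporulation probe sets had a control level up to 5, and 24 of these were higher, against 56.3% of all probe sets at that level. For early meiosis 13 of 22 were higher at that level.

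Genes expressed in a cells and switched off in alpha cells rose as well. AGA2, the adhesion subunit of the a agglutinin, had 5.18, 4.94 and 5.24 at 5 mg/L, against 2.01, 2.31 and 2.12 in controls, a rise of 2.97 (SE 0.14, 7.84-fold). MFA2, a precursor of a-factor, had 5.25, 5.46 and 5.40 at 5 mg/L, against 2.90, 2.72 and 3.01 in controls, a rise of 2.49 (SE 0.14). BAR1, the protease that degrades alpha-factor, had 5.74, 5.73 and 6.002 at 5 mg/L, against 3.90, 3.94 and 3.84 in controls, a rise of 1.93 (SE 0.09). MFA1, the other a-factor precursor, and ASG7, an inhibitor of pheromone signalling, rose by 1.20 and 1.08, and STE6, the a-factor exporter, by 0.27 with overlapping arrays. STE2, the receptor for alpha-factor, had a mean of 4.52 at 5 mg/L and 4.43 in controls and was not called. Thus 6 of 7 were higher with a median of 1.20, which stayed above 0 on the poly-A scaling with 3 higher and 1 lower. Of the 6 with a control level up to 5, 5 were higher, against 56.3% of all probe sets at that level, whose median difference was 0.37.

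The companion list of alpha-specific and haploid-specific genes had 1 of 18 higher (5.56%) and 8 lower (44.4%), with a median of -0.14. Its median control level was 9.39, and among all probe sets with control levels of 9 to 10 the shares were 19.3% higher and 45.6% lower. SST2, which desensitises cells to pheromone, had 8.55, 8.54 and 8.68 at 5 mg/L, against 9.41, 9.36 and 9.42 in controls, a fall of 0.81 on the log2 scale. Other members called lower were HO, the mating-type endonuclease, with -0.59, FAR1, the pheromone arrest factor, with -0.55, and STE4, the beta subunit of the pheromone G protein, with -0.36. Among 22 pheromone-induced genes 9 were higher and 5 lower, with a median of 0.12 that is below 0 on the poly-A scaling. FIG2, a mating adhesin, was highest with 0.94, and KSS1, a kinase of the pathway, lowest with -0.69. FUS1, the classical reporter of pheromone signalling, differed by -0.01 and was not called.

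**Figure D3:**
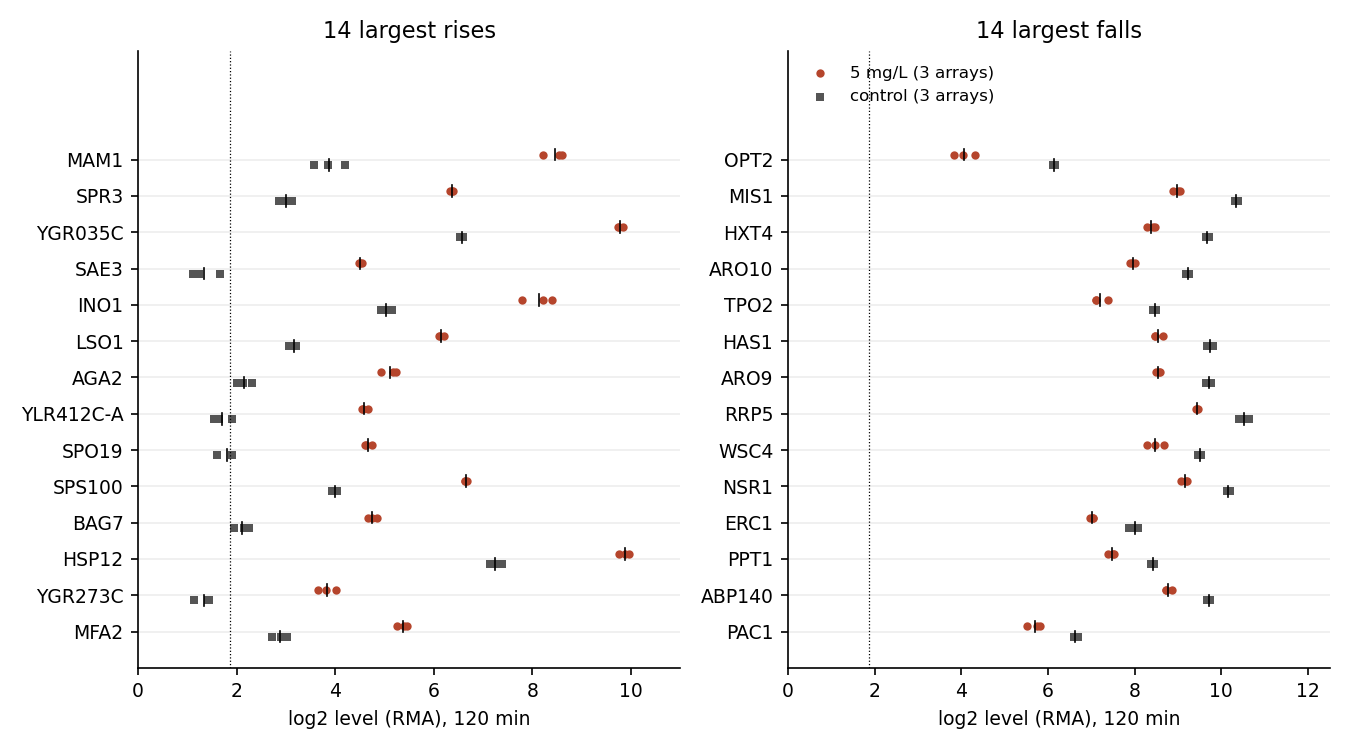
Log2 level on each array at 120 min for the 14 largest rises (left) and the 14 largest falls (right); red circles are the 3 arrays at 5 mg/L, dark squares the 3 control arrays, black ticks the group means and the dotted line the background level of 1.86. The genes were chosen among those whose exposed and control arrays do not overlap, and SAE3, YLR412C-A, SPO19 and YGR273C have control means under background.

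INO1 and YGR035C were the largest rises outside meiosis and mating. INO1, which makes inositol phosphate from glucose phosphate for the synthesis of phosphatidylinositol, had 8.22, 8.40 and 7.79 at 5 mg/L, against 4.93, 5.15 and 5.00 in controls, a rise of 3.11 (SE 0.14, 8.62-fold, limma adjusted p = 1.8e-11). It stood apart from the phospholipid genes listed with it, since 6 of 35 were higher and 15 lower, with a median of -0.12. GUT2, the mitochondrial glycerol phosphate dehydrogenase, rose by 1.07 and OPI3, a methyltransferase of phosphatidylcholine synthesis, by 0.75, while CHO2, the methyltransferase before Opi3 in the same route, fell by 0.36. HNM1, the choline transporter, fell by 0.61, and ITR1, the inositol transporter, by 0.29. OPI1, the repressor of INO1, rose by 0.27 and INO2, an activator of INO1, fell by 0.23. The acyl chain side moved down too, with 3 of 25 fatty acid genes higher and 13 lower and a median of -0.14. FAT1, a fatty acid importer, had -0.55 and ELO3, an elongase, -0.39. By contrast OLE1, the only fatty acid desaturase of yeast, had 10.15, 10.19 and 10.12 at 5 mg/L, against 9.61, 9.61 and 9.68 in controls, a rise of 0.52 (SE 0.07). Among 32 genes of ergosterol synthesis and its control 12 were higher and 8 lower, with a median of 0.07 that is below 0 on the poly-A scaling. ERG2 rose by 0.60, ERG25 by 0.50 and ERG1 by 0.49, all on the path from squalene to ergosterol, and ERG7 on the same path fell by 0.42. HMG2 and HMG1, the reductases that feed that path, fell by 0.45 and 0.40.

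YGR035C, an uncharacterised gene on the multidrug resistance list, had 9.84, 9.74 and 9.76 at 5 mg/L, against 6.53, 6.60 and 6.59 in controls, a rise of 3.20 (SE 0.08, 9.22-fold, limma adjusted p = 5.0e-14), the smallest p among the 5498 probe sets. ICT1, a lysophosphatidic acid acyltransferase, had 9.57, 9.56 and 9.49 at 5 mg/L, against 7.67, 7.79 and 7.65 in controls, a rise of 1.83 (SE 0.08). RSB1, a transporter of sphingoid bases, and PDR15, an ABC transporter, rose by 1.48 and 1.45. PDR5, the main drug pump of the plasma membrane, had 11.77, 11.86 and 11.73 at 5 mg/L, against 10.80, 10.99 and 11.01 in controls, a rise of 0.85 (SE 0.06). PDR3 rose by 0.90, and PDR1, its partner regulator, had a mean of 8.73 at 5 mg/L and 8.84 in controls and was not called. The list of 32 was divided, with 14 higher and 11 lower and a median of 0.04 that is below 0 on the poly-A scaling. Exporters driven by the proton gradient went both ways: TPO4 with -0.78, QDR2 with -0.74, TPO3 with -0.58 and AQR1 with -0.33 were lower, and AZR1 with 1.11 and TPO1 with 0.42 higher. TPO2, a polyamine exporter, had 2 probe sets, which read -1.26 and -0.56. The ABC transporters YBT1 and YCF1 of the vacuole fell too, with -0.59 and -0.31.

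General stress genes rose almost without exception. Of 38 probe sets for genes controlled by Msn2 and Msn4, 34 were higher and 1 lower, with a median of 1.01, which stayed above 0 on the poly-A scaling with 9 higher and 6 lower. HSP12, a small membrane-protecting protein, had 9.89, 9.76 and 9.97 at 5 mg/L, against 7.14, 7.39 and 7.24 in controls, a rise of 2.62 (SE 0.13, 6.14-fold). DDR2, a small multistress protein, had 9.19, 9.61 and 9.53 at 5 mg/L, against 7.13, 7.37 and 7.50 in controls, a rise of 2.11 (SE 0.13). TMA10, a ribosome-associated protein, rose by 1.90, DCS2, a regulator of mRNA decapping, by 1.20, and UGA2, an enzyme of GABA breakdown, by 1.18. CTT1, the cytosolic catalase, had 6.34, 6.58 and 6.61 at 5 mg/L, against 5.95, 5.89 and 5.97 in controls, a rise of 0.57 (SE 0.07). The transcripts of the regulators did not follow: MSN2 had a mean of 8.76 at 5 mg/L and 8.73 in controls and was not called, and MSN4 fell by 0.40 (SE 0.14, adjusted p = 0.020). Of the 30 members with a control level over 5, 27 were higher, against 22.6% of all probe sets at that level.

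Heat shock proteins rose in part. Of 34 chaperone probe sets 17 were higher, against 25.4% of all, and 3 lower (8.82%, against 32.7%), with a median of 0.15 that is below 0 on the poly-A scaling, where 4 were higher and 19 lower. HSP42, a small heat shock protein that sorts aggregates, had 10.70, 10.90 and 10.63 at 5 mg/L, against 8.95, 9.08 and 9.05 in controls, a rise of 1.72 (SE 0.09, 3.29-fold). SSA4, the stress-inducible Hsp70, had 9.70, 9.75 and 9.51 at 5 mg/L, against 8.19, 8.24 and 8.19 in controls, a rise of 1.45 (SE 0.07). APJ1, an Hsp40 cochaperone, rose by 1.54, BTN2, an aggregate sortase, by 1.46, HSP78, a mitochondrial disaggregase, by 1.27, and HSP104, the cytosolic disaggregase, by 0.92. The ribosome-bound Hsp70 SSB2 fell by 0.37, ECM10, a mitochondrial Hsp70, by 0.22 and AHA1, an activator of Hsp90, by 0.18. In the proteasome list RPN4, the activator of proteasome genes, rose by 0.87 and UBI4, the polyubiquitin gene, by 0.85, but only 9 of 38 probe sets were higher and 8 lower, with a median of 0.02 that is below 0 on the poly-A scaling. In the endoplasmic reticulum the balance was the reverse, with 4 of 32 higher and 16 lower and a median of -0.15. HAC1, the activator of the unfolded protein response, rose by 0.80 and ERO1, the oxidase of disulfide formation, by 0.75, while KAR2, the luminal Hsp70, fell by 0.25 and STT3, the catalytic subunit of oligosaccharyltransferase, by 0.47.

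Most redox genes rose. Of 37 probe sets for peroxide defence, thioredoxin and glutathione 23 were higher (62.2%, against 25.4% of all) and 6 lower (16.2%, against 32.7%), with a median of 0.18 that is below 0 on the poly-A scaling, where 2 were higher and 21 lower. GTO3, an omega-class glutathione transferase, had 6.11, 6.30 and 6.06 at 5 mg/L, against 3.48, 3.83 and 3.77 in controls, a rise of 2.46 (SE 0.12, 5.51-fold). GRE2, a reductase of reactive carbonyls, rose by 1.34, TSA2, a stress-inducible peroxiredoxin, by 1.05, ECM4, another omega-class transferase, by 0.96 and OYE2, an NADPH oxidoreductase, by 0.85. The lower members were SOD2, the mitochondrial superoxide dismutase, with -0.48, the glutathione synthesis enzymes GSH2 with -0.47 and GSH1 with -0.29, the peroxidase GPX2 with -0.29, the glutathione reductase GLR1 with -0.27 and the glutaredoxin GRX5 with -0.20.

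Siderophore and iron uptake genes rose together, with 20 of 23 higher, 0 lower and a median of 0.61; this median is below 0 on the poly-A scaling, where 5 were higher and 4 lower. In the test as deposited 0 of the 23 were lower by limma, also at an unadjusted p under 0.05. Of the 21 members with a control level over 5, 18 were higher, against 22.6% of all probe sets at that level and 25.4% at any level. FIT2, a cell wall mannoprotein that retains siderophores, had 11.53, 11.72 and 11.50 at 5 mg/L, against 9.82, 9.99 and 9.98 in controls, a rise of 1.65 (SE 0.14, 3.14-fold). ARN2 and SIT1, siderophore transporters, had means of 9.90 and 9.77 at 5 mg/L, against 8.26 and 8.23 in controls, rises of 1.64 and 1.54. ENB1, the transporter of enterobactin, rose by 1.24, CCC2, which loads copper into the iron oxidase, by 1.00 and FET3, that oxidase, by 0.72. AFT1 itself rose by 0.22. The low-affinity carrier FET4 differed by 0.02 and was not called.

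Genes of iron sparing and recycling, a companion list of 22, were divided with 10 higher and 9 lower and a median of 0.07 that is below 0 on the poly-A scaling. LSO1, a small protein induced when iron is short, had 6.14, 6.20 and 6.11 at 5 mg/L, against 3.20, 3.21 and 3.07 in controls, a rise of 2.99 (SE 0.15, 7.94-fold). TIS11, also called CTH2, which destroys mRNAs of iron-using proteins, had 9.22, 9.59 and 9.31 at 5 mg/L, against 7.53, 7.60 and 7.63 in controls, a rise of 1.79 (SE 0.11). HMX1, the haem oxygenase, rose by 1.67 and ISU1, a scaffold for iron-sulfur clusters, by 0.75. LEU1, an iron-sulfur enzyme of leucine synthesis, fell by 0.58, GRX4, a glutaredoxin that signals iron status, by 0.47, ISU2, the second scaffold, by 0.47 and CCC1, which moves iron into the vacuole, by 0.39. Copper and zinc genes were milder, with 10 of 24 higher and 4 lower and a median of 0.15 that is below 0 on the poly-A scaling. CTR3 and CTR1, the copper importers, rose by 1.33 and 0.70, COT1, a vacuolar zinc and cobalt transporter, by 0.70, and the low-affinity zinc importer ZRT2 fell by 0.32.

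Most storage carbohydrate genes rose, by less than 2-fold in most cases. Of 22 probe sets for trehalose and glycogen 16 were higher (72.7%, against 25.4% of all) and 2 lower (9.09%, against 32.7%), with a median of 0.39 that is below 0 on the poly-A scaling. On that scaling 0 were higher by limma (1 at an unadjusted p under 0.05) and 8 lower. SGA1, a glucoamylase known from sporulating cells, had 5.76, 5.59 and 5.90 at 5 mg/L, against 4.50, 4.62 and 4.19 in controls, a rise of 1.31 (SE 0.12). GDB1, the glycogen debranching enzyme, had 9.30, 9.54 and 9.52 at 5 mg/L, against 8.31, 8.28 and 8.29 in controls, a rise of 1.16 (SE 0.06). Genes of synthesis and of breakdown both rose: GLC3, the branching enzyme, by 0.87, TSL1 and TPS2, subunits of the trehalose synthase, by 0.82 and 0.79, and GPH1, the glycogen phosphorylase, by 0.54. PGM1, the minor phosphoglucomutase, fell by 0.37 and PIG1, a targeting subunit of a phosphatase, by 0.32.

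Of 29 probe sets for glycolysis and fermentation 16 were higher (55.2%, against 25.4% of all) and 0 lower (limma, also 0 at an unadjusted p under 0.05), with a median of 0.17 that is below 0 on the poly-A scaling. On that scaling 0 were higher by limma (1 at an unadjusted p under 0.05) and 16 lower. EMI2, a glucokinase paralogue, had 9.77, 9.80 and 9.76 at 5 mg/L, against 8.37, 8.51 and 8.51 in controls, a rise of 1.32 (SE 0.08). GPM2, a phosphoglycerate mutase homologue, rose by 0.93, PFK26, which makes the activator fructose 2,6-bisphosphate, by 0.86, ALD6, the cytosolic aldehyde dehydrogenase, by 0.81, GLK1, the glucokinase, by 0.80 and TDH1, the minor triose dehydrogenase, by 0.52. Among the 10 members with the highest control levels, PGK1 and PDC1 were called higher, by 0.17 and 0.14. The other 8 were not called: ENO1 had 0.14, ADH1 0.05, FBA1, TDH3 and CDC19 -0.01 each, TPI1 and GPM1 -0.04 each and ENO2 -0.07. Genes repressed by glucose rose moderately, with 14 of 24 higher and 2 lower and a median of 0.27 that is below 0 on the poly-A scaling. Of the 12 with a control level up to 5, 8 were higher, against 56.3% of all probe sets at that level. Of the 12 over 5, 6 were higher, against 22.6%. PCK1 and FBP1, the gluconeogenic enzymes, rose by 1.19 and 1.17 and ADY2, the acetate transporter, by 1.38, while ICL1, the isocitrate lyase, differed by -0.09 and was not called and MDH2, a malate dehydrogenase of the same pathway, fell by 0.59.

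Hexose carriers moved in both directions. HXT5, a carrier of slow-growing cells, had 5.82, 6.19 and 6.10 at 5 mg/L, against 3.83, 3.89 and 4.11 in controls, a rise of 2.09 (SE 0.15, 4.27-fold). GAL2, the galactose permease, had 5.42, 5.61 and 5.94 at 5 mg/L, against 3.47, 3.94 and 3.84 in controls, a rise of 1.91 (SE 0.14). HXT4, a high-affinity carrier, had 8.28, 8.46 and 8.42 at 5 mg/L, against 9.64, 9.72 and 9.65 in controls, a fall of 1.28 (limma adjusted p = 5.8e-11). HXT7, read by a probe set of a type that related transcripts can share, fell by 0.81, and HXT1, the low-affinity carrier, rose by 0.92. The glucose-sensing repressor genes MTH1 and RGT1 fell by 0.48 and 0.38, and the sensors SNF3 and RGT2 by 0.30 and 0.26. In all 13 of 26 probe sets were higher and 6 lower, with a median of 0.31 that is below 0 on the poly-A scaling. Of the 13 with a control level up to 5, 8 were higher, against 56.3% of all probe sets at that level. Of the 13 over 5, 5 were higher, against 22.6%.

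Mitochondrial genes did not move as 1 group. Of 38 probe sets for the respiratory chain and ATP synthase 7 were higher and 14 lower, with a median of -0.09. The largest rises among them were those of alternative enzymes: CYB2, the lactate dehydrogenase, had 6.04, 6.15 and 6.20 at 5 mg/L, against 4.56, 4.71 and 4.66 in controls, a rise of 1.48 (SE 0.10), NDE2, an external NADH dehydrogenase, rose by 1.16 and CYC7, the minor cytochrome c, by 1.00. INH1, the inhibitor of the ATP synthase, fell by 0.75 and the core subunits QCR2 and COR1 of the bc1 complex by 0.42 and 0.39. In the citrate cycle 10 of 25 were higher and 8 lower, with a median of -0.0045. Among the higher members were IDH1 with 1.02, IDH2 with 0.75, CIT2 with 0.73, PYC1 with 0.70 and ACO1 with 0.51, and among the lower ones PYC2 with -0.54, KGD1 with -0.31 and KGD2 with -0.24. Mitochondrial ribosomal proteins had 21 of 65 higher and 6 lower with a median of 0.07, which is below 0 on the poly-A scaling. Import machinery had 5 of 36 higher and 11 lower with a median of -0.04; SAM50, the channel that inserts outer-membrane barrels, had -0.67 and TIM50, the receptor of the inner-membrane channel, -0.60. Genes of peroxisomes and fatty acid oxidation had 23 of 38 higher and 3 lower with a median of 0.27 that is below 0 on the poly-A scaling. POX1, the acyl-CoA oxidase, and POT1, the thiolase, were higher by 1.12 and 0.73. PEX25, of peroxisome biogenesis, had the lowest value of the list, -0.61.

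The remaining largest rises were mostly of genes with low control levels. YLR412C-A, an uncharacterised gene, had 4.55, 4.57 and 4.66 at 5 mg/L, against 1.64, 1.55 and 1.90 in controls, at least 6.63-fold higher because its control mean was under background. YGR273C, also uncharacterised, had 3.66, 3.81 and 4.02 at 5 mg/L, against 1.43, 1.14 and 1.43 in controls, at least 3.91-fold higher. RNP1, an RNA-binding protein, rose by 2.48, SUE1, which takes part in the breakdown of unstable cytochrome c, by 2.41, SPG1 and SPG4, needed for survival in stationary phase, by 2.33 and 2.25, and ECM23, a GATA-type factor, by 2.22. FMP16, a mitochondrial protein, had 7.39, 7.28 and 7.41 at 5 mg/L, against 5.04, 5.29 and 5.34 in controls, a rise of 2.14, and YBR284W, an AMP deaminase homologue, rose by 2.02. The 25 largest rises were chosen among probe sets whose arrays did not overlap, and 19 of them had a control level under 4.

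Genes for poor nitrogen sources, for autophagy and for sulfur rose in part. ATG10, the E2-like enzyme of autophagy, had 6.36, 6.32 and 6.40 at 5 mg/L, against 4.66, 4.60 and 4.59 in controls, a rise of 1.74 (SE 0.10). ATG8, the ubiquitin-like protein of the autophagosome, had 9.02, 8.89 and 8.59 at 5 mg/L, against 7.22, 7.21 and 7.28 in controls, a rise of 1.60 (SE 0.11). ATG39 and ATG40, receptors for nuclear and endoplasmic reticulum membrane, rose by 1.16 and 1.13. The list had 19 of 34 higher and 2 lower, ATG18 with -0.48 and ATG4 with -0.24, and a median of 0.25 that is below 0 on the poly-A scaling. PUT1, the proline oxidase, rose by 1.44 and GAP1, the general amino acid permease, by 0.72. OPT2, a transporter of the oligopeptide family, had 4.04, 3.84 and 4.32 at 5 mg/L, against 6.17, 6.11 and 6.12 in controls, a fall of 2.07 on the log2 scale (SE 0.12, limma adjusted p = 3.8e-10), the largest on the array. OPT1, the glutathione and oligopeptide importer, fell by 0.94 and PTR2, the dipeptide importer, by 0.57; the nitrogen list had 15 of 32 higher and 7 lower with a median of 0.25 that is below 0 on the poly-A scaling. In sulfur metabolism MET2, MET32 and CYS3 rose by 1.01, 0.85 and 0.77, whereas SAM3 and MMP1, the importers of S-adenosylmethionine and S-methylmethionine, fell by 0.88 and 0.62, among 15 of 29 higher and 4 lower; the median of 0.16 is below 0 on the poly-A scaling.

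The falls were smaller than the rises. MIS1, the mitochondrial enzyme that activates folate one-carbon units, had 9.04, 8.89 and 8.999 at 5 mg/L, against 10.37, 10.31 and 10.34 in controls, a fall of 1.36 on the log2 scale (SE 0.05, 2.57-fold, limma adjusted p = 8.2e-12). SHM1, the mitochondrial serine hydroxymethyltransferase, had -0.72 and MET7, the folate polyglutamate synthase, -0.51, while GCV1 of the glycine cleavage complex rose by 0.61. ARO10, the decarboxylase for breaking down aromatic amino acids, had 8.02, 7.94 and 7.90 at 5 mg/L, against 9.18, 9.22 and 9.25 in controls, a fall of 1.26. ARO9, the aminotransferase before it, had 8.59, 8.55 and 8.49 at 5 mg/L, against 9.71, 9.65 and 9.76 in controls, a fall of 1.16. The permeases BAP3, TAT1, BAP2 and TAT2 fell by 0.52, 0.44, 0.41 and 0.35, and their list had 5 of 21 higher and 10 lower with a median of -0.14. PHO5, the secreted acid phosphatase, had 8.95, 8.86 and 8.77 at 5 mg/L, against 9.72, 9.61 and 9.79 in controls, a fall of 0.85. PHO11, a related phosphatase gene whose probe set related transcripts can share, rose by 0.94, PHO89, the sodium-coupled importer, by 0.94, and PHO84, the main phosphate importer, differed by 0.05 and was not called. WSC4, a sensor of the cell wall, fell by 1.03 and FKS1, the main glucan synthase, by 0.61, within a wall list that stood at 15 of 56 higher, 15 lower and a median of 0.02 that is below 0 on the poly-A scaling; BAG7, a GTPase-activating protein for Rho1, had 4.67, 4.74 and 4.85 at 5 mg/L, against 1.94, 2.14 and 2.24 in controls, a rise of 2.65.

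Transcripts for ribosome production were lower at many steps. Of 77 probe sets for ribosome assembly and RNA polymerase I 49 were lower (63.6%) and 4 higher (5.2%), against 32.7% and 25.4% of all probe sets, with a median of -0.27. The list also held PPT1, a phosphatase that acts on Hsp90, which counted among the lower members with -0.95. The median control level of this list was 9.36, and among all probe sets at levels of 9 to 10 the shares were 45.6% lower and 19.3% higher. HAS1, an RNA helicase of the nucleolus, had 8.47, 8.66 and 8.47 at 5 mg/L, against 9.82, 9.68 and 9.75 in controls, a fall of 1.22. RRP5, a processing factor for both subunits, had 9.42, 9.44 and 9.46 at 5 mg/L, against 10.63, 10.40 and 10.55 in controls, a fall of 1.09. NSR1, the yeast nucleolin, fell by 1.00, BFR2 by 0.81 and RPA135, the second largest subunit of RNA polymerase I, by 0.75. IMP4, a part of the small-subunit processome, had 9.39, 9.24 and 9.29 at 5 mg/L, against 8.39, 8.36 and 8.39 in controls, a rise of 0.92 (SE 0.07) against the trend, and NOP16, RRP9 and GAR1 rose by 0.57, 0.26 and 0.17. Cytosolic ribosomal proteins had 3 of 148 higher (2.03%) and 65 lower (43.9%) with a median of -0.16. Their median control level was 11.8, and among all probe sets over 11 the shares were 14.5% higher and 36.3% lower. RPL12A, a large-subunit protein, had -0.64 and RPS9B, a small-subunit protein, -0.61, and the higher ones were RPL2B with 0.31, RPL15B with 0.24 and RPP0 with 0.11.

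The wider machinery of transcription and translation shared that direction. Median control levels of the lists below ran from 8.95 for nuclear pore proteins to 11.07 for the tRNA synthetases. Among all probe sets with a control level over 9, 42.7% were lower and 17.5% higher, and the counts below stand against these shares as well. Cytosolic aminoacyl-tRNA synthetases had 14 of 18 lower and 1 higher with a median of -0.29. DED81, the asparaginyl enzyme, had 10.96, 11.01 and 11.09 at 5 mg/L, against 11.60, 11.65 and 11.66 in controls, a fall of 0.61, and FRS1, a subunit of the phenylalanyl enzyme, had 11.10, 11.06 and 11.10 at 5 mg/L, against 10.65, 10.75 and 10.79 in controls, a rise of 0.36. Core subunits of RNA polymerases II and III had 19 of 25 lower and 2 higher with a median of -0.25; RPB2, the second largest subunit of polymerase II, fell by 0.54 and MAF1, the repressor of polymerase III, rose by 0.22. Translation factors had 18 of 32 lower and 4 higher with a median of -0.19, DED1, a helicase of initiation, having -0.86 and RPG1, a subunit of eIF3, -0.54, while NIP1, another eIF3 subunit, rose by 0.62. Nuclear pore proteins had 20 of 32 lower and 5 higher with a median of -0.17. The scaffold proteins NUP192 and POM152 fell by 0.57 and 0.56, and NUP116, a nucleoporin of the FG class, had 9.60, 9.63 and 9.58 at 5 mg/L, against 9.16, 9.18 and 9.21 in controls, a rise of 0.42. Purine and pyrimidine genes had 21 of 37 lower and 5 higher with a median of -0.23; IMD4, an IMP dehydrogenase, had -0.92, URA4 of pyrimidine synthesis -0.83 and FUI1, the uridine permease, -0.82. Amino acid synthesis had 32 of 57 lower and 13 higher with a median of -0.22, LYS4, the homoaconitase of lysine synthesis, having -0.77, whereas LYS20, the first enzyme of the same pathway, had 10.07, 10.03 and 10.08 at 5 mg/L, against 9.23, 9.22 and 9.19 in controls, a rise of 0.85.

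Of 34 probe sets for the G1 and S phases of the cell cycle 19 were lower (55.9%, against 32.7% of all) and 4 higher (11.8%, against 25.4%), with a median of -0.30, the lowest of the 53 lists. CLN1, a G1 cyclin, had 8.21, 8.57 and 8.38 at 5 mg/L, against 9.14, 9.10 and 9.14 in controls, a fall of 0.74. HCM1, a forkhead activator of S phase, fell by 0.71, SWE1, the mitotic inhibitor kinase, by 0.69 and the S-phase cyclins CLB6 and CLB5 by 0.67 and 0.54. SIC1, the inhibitor of those cyclins, rose by 0.44 and POL30, the sliding clamp of replication, by 0.50. Of 30 probe sets for G2 and mitosis 15 were lower and 7 higher (23.3%) with a median of -0.17. CLB1 and CLB2, mitotic cyclins, fell by 0.64 and 0.57 and ALK1, a kinase of mitosis, rose by 0.93. Of 28 DNA damage genes 9 were higher and 4 lower with a median of -0.01. RNR3, the inducible ribonucleotide reductase subunit, had 8.01, 8.26 and 8.12 at 5 mg/L, against 6.32, 6.58 and 6.60 in controls, a rise of 1.63 (SE 0.10), and HUG1, an inhibitor of that enzyme, rose by 1.45, while RAD54 and RNR1 differed by -0.06 and -0.08 and were not called. The list of 13 probe sets for histones and their regulators held 1 higher, CSE4, the centromeric histone variant, with 0.15. Its 2 lower members were SPT21 and SPT10, regulators of histone genes, with -0.40 and -0.36, and the other 10 probe sets were not called. The actin, tubulin and septin list had 2 of 30 higher and 10 lower.

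The other large falls belonged to genes of varied roles. ERC1, a transporter of the MATE family, had -0.97, PPT1, a phosphatase that acts on Hsp90, -0.95, PAC1, the yeast LIS1 homologue of nuclear migration, -0.94, and ABP140, an actin-binding tRNA methyltransferase, -0.94. CAF4, a protein of mitochondrial fission, and FSH1, a serine hydrolase, both had -0.92, YDR514C, uncharacterised, -0.91, PPM2, an enzyme of wybutosine synthesis, -0.85, BRN1, a condensin subunit, -0.84 and KAP122, a nuclear import receptor, -0.83. Of the 25 largest falls 21 had a control level over 7.

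The 7 other lists complete the picture. Anaerobic mannoprotein and PAU genes had 15 of 23 higher and 2 lower with a median of 0.34 that is below 0 on the poly-A scaling; HES1, an oxysterol-binding protein, rose by 1.14, PAU24 by 1.00 and DAN1 by 0.63, while AAC3, the anaerobic ATP/ADP carrier, fell by 0.40. Glycerol and osmotic stress genes had 9 of 24 higher and 7 lower with a median of 0.04 that is below 0 on the poly-A scaling. The glycerol enzymes GPD1 and GPP2 rose by 0.66 and 0.42, and the osmosensors SHO1 and SLN1 fell by 0.58 and 0.30. Sphingolipid genes had 9 of 26 higher and 7 lower with a median of 0.03 that is below 0 on the poly-A scaling, YDC1, a ceramidase, having 0.49 and LAG1, a ceramide synthase subunit, -0.40. Daughter cell separation had 7 of 18 higher and 4 lower with a median of 0.06 that is below 0 on the poly-A scaling, PIR1 of the cell wall having 0.66 and NIS1 of the bud neck -0.38. The vacuolar proton pump had 2 of 20 higher and 9 lower with a median of -0.12, VMA2 having -0.40 and VMA16 0.26. Vitamin genes had 8 of 34 higher and 14 lower with a median of -0.08, THI4 of thiamine synthesis rising by 1.13 and BIO4 of biotin synthesis falling by 0.51. The aryl-alcohol dehydrogenase family had 0 of 8 higher (limma, also 0 at an unadjusted p under 0.05) and 2 lower. These were 2 of the 3 probe sets of AAD3, with -0.53 and -0.34, and the other 6 probe sets of the list were not called.

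**Figure D4:**
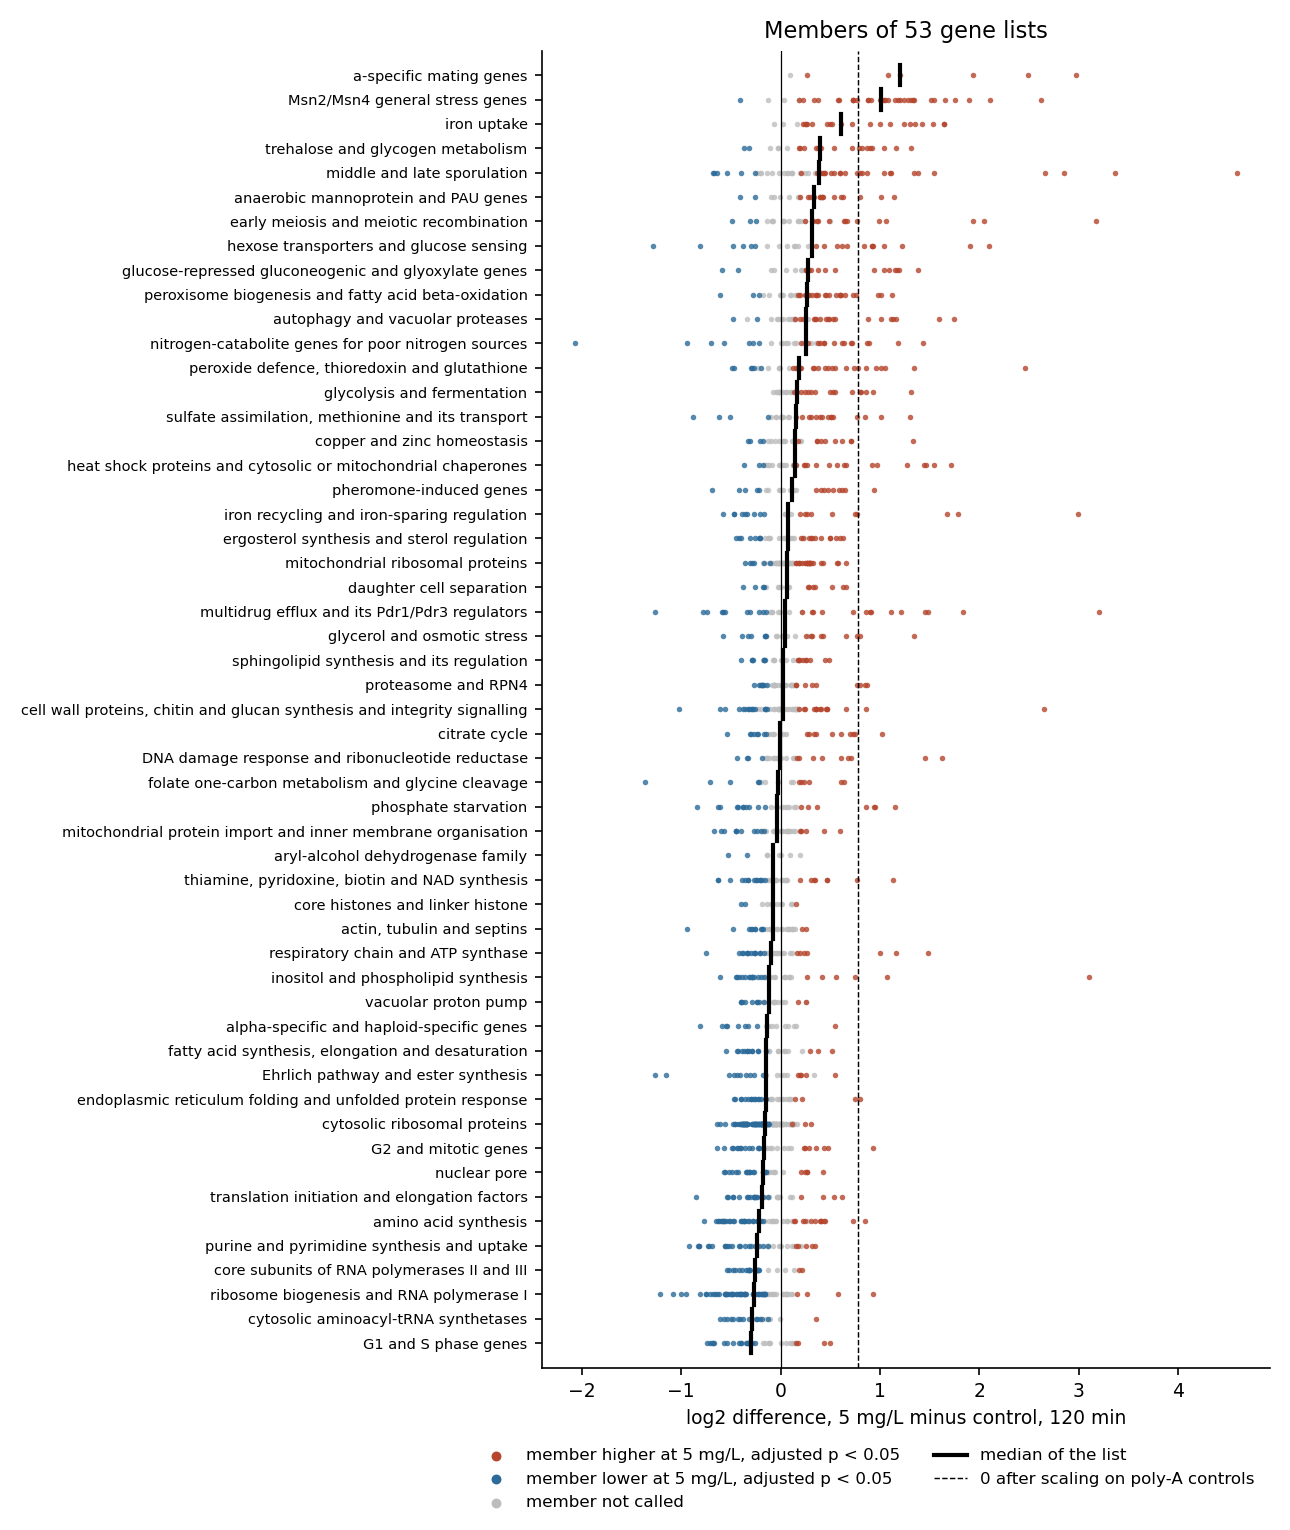
Log2 difference between 5 mg/L and control at 120 min for the members of 53 gene lists, ordered by the list median (black tick); red members were called higher, blue lower and grey neither, and the dashed line marks where 0 lies once arrays are scaled on the poly-A controls. As deposited 27 medians lie above 0, from 1.20 for a-specific genes down, and 26 below, to -0.30 for G1 and S phase genes; on the poly-A scaling 2 lie above 0.

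The dose was then tested directly, 5 against 1 mg/L at 120 min. Of 5498 probe sets 3156 differed (57.4%; limma adjusted p under 0.05), 1335 higher at 5 mg/L (24.3%) and 1821 lower (33.1%). All of the 25 largest rises over control were also higher at 5 than at 1 mg/L, and 24 of the 25 largest falls were lower, the exception being PHO5. By fitted difference these rises stood at 1 mg/L between -0.15 and 0.45 of the control and the falls between -0.75 and 0.26. MAM1, SPR3, INO1 and AGA2 had the largest fitted differences between doses among genes above background at both; MAM1 had a mean of 8.46 at 5 mg/L and the difference of SPR3 was 3.24. SAE3, which the fit placed among them, had a mean under background at 1 mg/L and has no measured size there. Against control 25 probe sets were called at 1 mg/L (0.455%). Same-numbered 1 mg/L and control arrays deviated together, and with the replicate number as a block 26 were called, 23 of the 25 among them. Without the other groups' arrays 17 were called, and 10 with the block in addition. The doses share their control arrays, so that the values are set side by side. RSB1 had 1.48 at 5 mg/L and 0.52 at 1 mg/L, TMA10 1.90 and 0.59, and PDR5 0.85 and 0.38, each with a called difference between the doses. Without the other groups' arrays PDR5 lost its call at 1 mg/L, and RSB1 and TMA10 lost theirs with the block in addition.

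For some of these genes no difference between the doses was called. OLE1 had 0.52 at 5 mg/L and 0.41 at 1 mg/L, and the difference of 0.11 between doses was not called (SE 0.07, adjusted p = 0.17). GPH1 had 0.54 and 0.46 and IZH4, a membrane protein of zinc homeostasis, 0.45 and 0.58 at 5 and 1 mg/L, with differences of 0.08 and -0.13 that were not called. PHO5 had -0.85 and -0.75, with a difference of -0.09 that was not called. ARO10 and ARO9 had -1.26 and -1.16 at 5 mg/L and -0.69 and -0.61 at 1 mg/L, and here the differences of -0.57 and -0.55 were called. HXT1 and PHO11 crossed the control: HXT1 had 0.92 at 5 mg/L and -0.54 at 1 mg/L, a difference of 1.47 between doses, and PHO11 had 0.94 and -0.50, a difference of 1.44, all 6 values called by limma. GSY1, a glycogen synthase, had 0.07 at 5 mg/L, not called, and 0.38 at 1 mg/L, and the difference of -0.31 was called. Without the other groups' arrays OLE1 and GSY1 lost their calls at 1 mg/L, and GPH1 lost its call with the replicate block in addition.

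**Figure D5:**
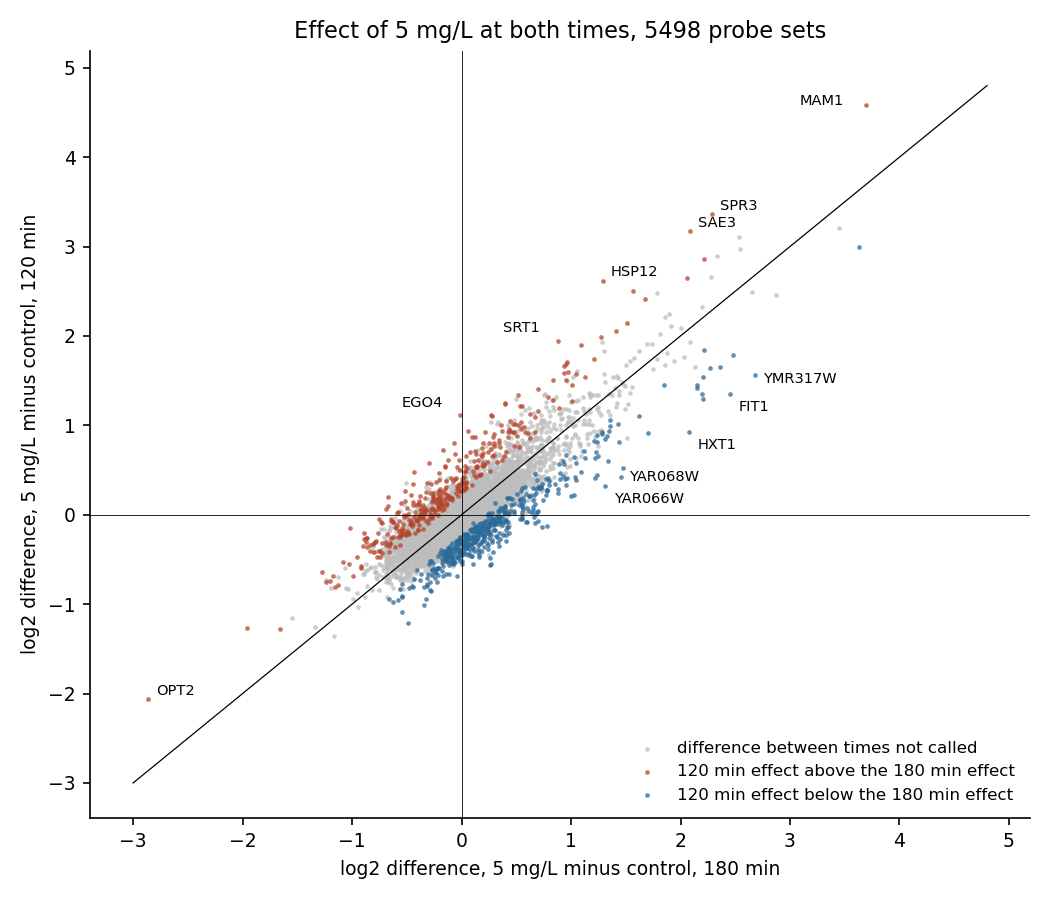
Log2 difference between 5 mg/L and control at 120 min (vertical axis) against the same at 180 min (horizontal axis) for 5498 probe sets, with the line of equality; red points have an effect called higher at 120 than at 180 min, blue points lower, and grey points no called difference. Most points follow the line; MAM1, SPR3, HSP12, SRT1 and EGO4 lie above it, and HXT1, FIT1, YMR317W, YAR068W and YAR066W below it.

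The effect at 120 min was finally tested against that at 180 min, each with its own exposed and control arrays. At 180 min 3374 probe sets were called (61.4%), and 2293 were called in the same direction at both times, which is 71.8% of the calls at 120 min and 68.0% of those at 180 min; 61 were called in opposite directions. The effects differed for 824 probe sets (15.0%), 355 of them with a higher effect at 120 min (6.46%) and 469 with a lower one (8.53%). HSP12 had means of 9.87 at 5 mg/L and 7.25 in controls at 120 min, and of 9.57 at 5 mg/L and 8.28 in controls at 180 min, so that its effect was larger by 1.33 at 120 min (SE 0.18, adjusted p = 0.00044). EGO4 had an effect larger by 1.13, SPR3 by 1.08 and SRT1, a prenyltransferase of dolichol synthesis, by 1.07. SAE3 was also called higher at 120 min, but its control means were under background at both times, and the size of its difference was not measured. EGO4 had means of 6.99 at 5 mg/L and 5.88 in controls at 120 min, and of 6.82 at 5 mg/L and 6.84 in controls at 180 min, so that the difference at 180 min was -0.02 and not called. In the other direction HXT1 had means of 8.25 at 5 mg/L and 7.33 in controls at 120 min, and of 8.28 at 5 mg/L and 6.20 in controls at 180 min, a difference of -1.15 between the effects. FIT1, a siderophore-retaining mannoprotein, had a difference of -1.105 between the effect at 120 min and that at 180 min, and YMR317W, YAR068W and YAR066W had -1.11, -1.04 and -0.996.

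Control means differed more between the times than 5 mg/L means did, on the array as a whole and among these calls. Among the 824 probe sets the control means of 120 and 180 min lay further apart in 656 (79.6%), with median distances of 0.12 at 5 mg/L and 0.29 in controls. Among all 5498 they did so in 3632 (66.1%), with median distances of 0.07 at 5 mg/L and 0.13 in controls. For ribosome assembly 53 of 77 probe sets had a lower effect at 120 min, and between 120 and 180 min the list median moved by -0.03 at 5 mg/L and by -0.39 in controls, so that the effect had a median of -0.27 at 120 min and of 0.05 at 180 min. For respiration 24 of 38 had a higher effect at 120 min, with shifts of -0.07 at 5 mg/L and 0.31 in controls. For general stress genes 13 of 38 had a higher effect at 120 min, with shifts of 0.02 and 0.28, and for iron uptake 11 of 23 had a lower one, with shifts of 0.14 and -0.23. Ribosomal proteins had 0 of 148 with a different effect between times by limma, and 5 at an unadjusted p under 0.05. What moved the controls was not tested. The count of 824 varied with single arrays, being 449 without control array 1 and 427 without control array 3 of 120 min, 436 without exposed array 1 of 120 min, 403 without control array 2 of 180 min, and 540 and 435 without exposed arrays 2 and 3 of 180 min. Without exposed array 2 of 120 min it was 1160, and with all arrays scaled on the poly-A controls it was 5.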

How the data were processed

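Total RNA of 18 yeast samples in 6 groups of 3 was labelled with biotin and hybridized to Affymetrix Yeast Genome 2.0 arrays, per the labels' protocols. The deposited log2 values, 0.41 to 13.74, came from RMA according to the submitters' processing notes, which also name affy and limma; versions are not given in the sources used here, and the log base, read here as 2, is not stated. RMA makes the arrays' distributions alike, so values are relative to the other transcripts. Of 10928 probe sets, 5498 with 1 S. cerevisiae symbol were tested; 1746 for another species, 213 controls, 3470 unnamed ones and 1 with several symbols were not. limma 3.58.1 (R 4.3.3) fitted 6 group means over 18 arrays with eBayes and Benjamini-Hochberg adjustment over the 5498 probe sets; a call is an adjusted p under 0.05. Background was set at 1.86, below which 95% of the means of other-species probe sets lie. The fit was tested on simulated data. A control mean under background gives a lower bound for the fold. The number of arrays limits the precision.

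The genes named were drawn from the 25 largest rises and 25 largest falls among called probe sets whose arrays did not overlap. Others came from up to 6 called members of each of 53 lists with the smallest p, and from members opposing their list. Members of lists under 10 genes, the 5 largest differences each way between doses and between times, and strain markers were also drawn on. Not every such member is named. A few further members, given as contrasts, were chosen after their values were seen. The comparison and the lists were chosen with earlier results of these data known. Of 1715 listed genes 1674 matched a probe set, and 12 symbols were updated. Alternatives were other scalings, variance models, filters, arrays left out and a replicate block. Deviations from the group means of same-numbered arrays correlated at 0.25 to 0.41 between 1 mg/L and control at 120 min. Such correlations ran from -0.24 to 0.01 between 5 mg/L and control at 120 min, and from -0.10 to 0.43 between 5 and 1 mg/L. In neither comparison did every pair pass 0.1. Over all groups same-numbered arrays ran from -0.455 to 0.518. A pair of unlike number, 1 mg/L array 3 and 5 mg/L array 2 of 120 min, had 0.61. No label names a shared source, and whether the numbers pair the samples is not known. Promoter sequences were not used here. Summaries were made with Python 3.11.15, pandas 2.3.3, numpy 2.4.6 and matplotlib 3.10.9.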

Additional observations from a re-analysis of the deposited data

Results flagged for a closer look

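The effect of 5 mg/L differed between 120 and 180 min for 824 probe sets by limma's interaction test, and the values below are the effect at 120 min minus that at 180 min on the log2 scale. The 5 largest in each direction were HSP12 with 1.33, EGO4 with 1.13, SAE3 with 1.09, SPR3 with 1.08 and SRT1 with 1.07, and HXT1 with -1.15, YMR317W with -1.11, FIT1 with -1.105, YAR068W with -1.04 and YAR066W with -0.996. The control means of SAE3 lay under background at both times, so that its value is a fitted one and not a measured size. YAR066W is read by a probe set of a type that related transcripts can share.

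Among the largest rises, a larger effect at 120 min was called for MAM1 with 0.89, YGR273C with 0.93, SUE1 with 0.74, SPO19 with 0.64, SPO11 with 0.64, FMP16 with 0.63 and BAG7 with 0.59. For YGR273C at both times and for SPO19 at 120 min the control mean was under background, and these values too are not measured sizes. LSO1, at -0.64, had the smaller effect at 120 min. Among the largest falls, a stronger fall at 120 min was called for HAS1 with -0.73, NSR1 with -0.66, OPT1 with -0.61, DED1 with -0.57, PPM2 with -0.56, RRP5 with -0.54, CAF4 with -0.38, PPT1 with -0.37, YDR514C with -0.37, ERC1 with -0.35, ABP140 with -0.28 and KAP122 with -0.26. For OPT2 with 0.80, ARO10 with 0.69 and HXT4 with 0.38 the fall was weaker at 120 than at 180 min.

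Signals outside the tested genes also differed. Of 3470 probe sets with no gene name, 375 lay above background, and 13 were at least 2-fold higher at 5 mg/L with arrays that did not overlap, the largest by 4.09, against 0 at least 2-fold lower. The added poly-A controls were higher by 0.78 and the hybridization controls by 0.26 on the exposed arrays of 120 min, 18S rRNA by 0.39 and 25S rRNA by 0.98. At 180 min the same differences were 0.24, 0.37, 0.28 and 0.39, and at 1 mg/L and 120 min -0.05, -0.02, 0.07 and 0.15. What raised them was not tested.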

How the results depend on the processing

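The 25 largest rises, the 25 largest falls and the 10 genes named for dose kept direction and call in all 16 alternatives run for each. For the largest rises and falls the poly-A and hybridization-control scalings could not have reversed the direction. Of the 10 named for time, 5 kept their call in 22 alternatives, and HSP12, EGO4, SAE3, SPR3 and SRT1 lost it on the poly-A scaling; 0 of these genes reversed. Requiring a 2-fold change left 203 calls, 193 higher and 10 lower. On the hybridization-control scaling, chosen after seeing the data, 521 were higher and 2963 lower, against 95 and 4278 on the poly-A scaling. The dose comparison gave 456 higher and 3170 lower, and 69 and 4512, on these scalings. List medians above 0 numbered 10 and 2.

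The difference between times was the least settled. It had 2203 calls with array weights, 1164 higher and 1039 lower. On the hybridization-control scaling it had 167, 156 higher and 11 lower, and on the poly-A scaling 5, all lower, with 0 higher by limma and 1 at an unadjusted p under 0.05. Leaving out 1 array at a time gave 403 to 1160 calls, 167 to 556 higher and 236 to 604 lower. For 5 mg/L against control the same gave 2842 to 3035, and for dose 2839 to 3096. The causes were not tested.

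Same-numbered 5 mg/L and control arrays deviated with r of -0.24 to 0.01, so the numbers were not taken to pair these samples. With a replicate block 3197 probe sets were called against control, 868 between times and 3151 between doses. At 1 mg/L against control, where same-numbered arrays deviated together, the block gave 26 calls. With only the compared arrays there were 10 with a block and 17 without, choices made after seeing the data. Signals under the background level of 1.86 could not be measured.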

Other observations

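Some of the strongest rises were neighbours on a chromosome. Of 193 genes with a fitted difference of at least 2-fold at 5 mg/L, 31 lay in 14 runs of adjacent genes. Such rises made up 3.51% of probe sets, and how many runs as many genes placed at random would give was not worked out. The longest run held 4 genes: ENB1, the enterobactin transporter, with 1.24, HXT11, a hexose carrier family member, with 1.22, YOL155W-A with 1.25 and HPF1, a cell wall mannoprotein, with 1.16. The next held FIT2 with 1.65, FIT3 with 1.10 and FRE5, a ferric reductase homologue, with 1.42, which are all genes of iron uptake. In pairs stood HSP26 and YBR072C-A with 1.51 and 1.83, XBP1 and SGA1 with 1.65 and 1.31, YHR138C and SPS100 with 1.58 and 2.66, and IDH1 and NCE103, the carbonic anhydrase, with 1.02 and 1.28. Whether probes read through from one neighbour to the next was not tested.

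Of 47 genes read by several probe sets, 13 had all of them called in the same direction, 17 had none called, 16 had part of them called and MST28 had calls in opposite directions.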
